A study of Mus musculus with 5 samples.

Results

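CD71-selected cells from the spleens of UVB-irradiated mice were compared with CD71-selected cells from steady-state bone marrow. The comparison held 3 of the 5 libraries of the series, chosen by their labels, 2 from UVB spleens and 1 from control bone marrow. The UVB group comprised C57BL/6 mice whose skin was irradiated with UVB at 50 mJ/cm2, and its cells came from the spleen. The control was bone marrow of untreated C57BL/6 mice. The remaining 2 libraries came from spleens of mice that carried subcutaneous B16 melanoma, labelled C57BL/7 and C57BL/8, and their values stand beside the others where they bear on a result. In all 5 libraries the cells had been captured with magnetic beads against CD71, the transferrin receptor, and polyA RNA had been sequenced. No library came from the spleen of an untreated mouse or the marrow of an irradiated one, so organ and irradiation cannot be told apart. The labels do not say whether libraries came from separate mice or pools, so p-values measure only the spread between these libraries, which may be technical.

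CD71 imports transferrin-bound iron and is most abundant on dividing red cell precursors, which need iron for heme, but other dividing or activated cells carry it too. In mice the bone marrow makes red cells, granulocytes and B cells at steady state, beside the stromal and bone-forming cells that support them. The spleen filters blood through red pulp macrophages, houses mature and marginal zone B cells, and makes red cells when demand rises, in a process driven by erythropoietin, BMP4, Hedgehog and stem cell factor signals.

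The promoters of 4 genes are shown because they stand for the main groups below: Vpreb1 and Igll1, which encode the surrogate light chain of the pre-B cell receptor, C6, a complement gene higher in UVB spleen, and Cr2, the complement receptor of mature and marginal zone B cells. Each is the 250 bases before the gene's start, 5′ to 3′ on the gene's strand, from RefSeq on GRCm38.p6. Vpreb1 lies on the minus strand of chromosome 16 (chr16:16869256-16869505), Igll1 on the minus strand of chromosome 16 (chr16:16863986-16864235), C6 on the plus strand of chromosome 15 (chr15:4726960-4727209) and Cr2 on the minus strand of chromosome 1 (chr1:195176720-195176969). Capitals mark motifs found on either strand. The E-box was searched as CAGGTG. The motif bound by GATA factors was searched as AGATAA. The motif of the myeloid and B cell factor PU.1 was searched as GAGGAA.
Vpreb1: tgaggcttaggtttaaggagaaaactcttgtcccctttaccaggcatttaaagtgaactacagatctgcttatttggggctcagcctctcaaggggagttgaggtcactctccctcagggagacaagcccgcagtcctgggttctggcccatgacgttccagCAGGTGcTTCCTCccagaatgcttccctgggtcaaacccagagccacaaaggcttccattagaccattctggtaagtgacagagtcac
Igll1: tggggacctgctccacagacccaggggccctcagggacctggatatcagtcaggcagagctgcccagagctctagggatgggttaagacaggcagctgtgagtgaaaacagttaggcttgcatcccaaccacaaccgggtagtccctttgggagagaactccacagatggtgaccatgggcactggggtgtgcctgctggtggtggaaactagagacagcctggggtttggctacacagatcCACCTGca
C6: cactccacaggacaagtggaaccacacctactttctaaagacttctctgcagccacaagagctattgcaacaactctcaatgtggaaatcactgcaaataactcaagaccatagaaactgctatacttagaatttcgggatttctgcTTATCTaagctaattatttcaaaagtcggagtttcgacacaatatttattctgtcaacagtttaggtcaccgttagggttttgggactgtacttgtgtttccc
Cr2: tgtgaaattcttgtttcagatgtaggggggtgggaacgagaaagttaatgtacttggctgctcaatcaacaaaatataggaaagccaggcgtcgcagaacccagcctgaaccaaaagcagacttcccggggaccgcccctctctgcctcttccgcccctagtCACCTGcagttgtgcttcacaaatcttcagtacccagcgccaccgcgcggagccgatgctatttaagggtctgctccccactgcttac
In all, 4 motifs were searched on both strands, these 3 and an EBF motif, TCCC and GGGA with any 2 bases between, in windows of the same length. The 12 pro-B and pre-B cell markers had 18 promoters, of which 5 held the E-box (27.8%, against 17.2% of all promoters), 6 the PU.1 motif (33.3%, against 23.3%), 2 the GATA motif (11.1%, against 9.99%) and 0 the EBF motif (against 0.779%). For 18 of the 27 genes called higher in UVB spleen, with 28 promoters, the numbers were 1 (3.57%), 5 (17.9%), 4 (14.3%) and 0. The others, Adamdec1, Rgs1 and Ptgis among them, had no entry in the promoter set and were left out. The motifs were picked with results known, and a match is a description of letters, not of a bound site.

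Reads in genes ranged between 5003923 and 5921270 per library, so 1 read was worth 0.168 to 0.198 counts per 1000000 reads (CPM). Levels below are CPM as deposited, which include 1 read the authors added to every gene, so a value near 0.17 to 0.20 stands for 0 reads. The lone control library has no spread of its own. UVB 1 and UVB 2 were alike, with a median absolute difference of 0.11 on the log2 scale and 44 of 10174 genes of at least 10 CPM over 2-fold apart. The most abundant genes did not go much beyond 1 read per base of exon, and 220 tested genes passed 0.5 reads per base in some library. Whether that coverage limits the differences seen in these genes was not tested. Xist was at 1163 and 1095 CPM in the UVB libraries and 1049 CPM in the control, and 4 Y-linked genes together had 2 and 0 reads in the UVB libraries and 0 in the control. In bulk libraries fewer cells of a type and less RNA per cell cannot be told apart.

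Most called differences were decreases in UVB spleen. They included genes of B cell precursors (7 of 12 tested), neutrophil granules (8 of 24), marrow stroma (12 of 22) and collagen chains (12 of 19), many with only a few UVB reads. The named called increases were led by a metalloprotease, a latrophilin, a sulfotransferase, prostacyclin synthase and a terminal complement component. Of 22 erythroid identity genes 0 were called. Among 15006 genes that averaged 1 CPM or more, limma on log2(CPM + 1) called 349 at an adjusted p under 0.05 (2.33%), 27 higher (0.180%) and 322 lower (2.15%), with 2276 at an unadjusted p under 0.05. Counted by size alone, 610 genes (4.07%) were at least 2-fold higher and 930 (6.20%) at least 2-fold lower in both UVB libraries. In the same fit UVB spleen differed from tumor spleen in 2557 genes (17.0%).

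That fit takes its spread from all 4 spleen libraries, and the tumor libraries differed from each other more than the UVB libraries did. Fitted on the UVB and control libraries alone, 2984 genes were called, 1359 higher (9.06%) and 1625 lower (10.8%), so the higher share was 45.5%, against 7.74% with all 5 libraries. Without tumor 1 the count was 3043 and without tumor 2 it was 3056, while without UVB 1 or without UVB 2 the limma count was 0 (1065 and 1122 genes had an unadjusted p under 0.05). On recovered reads edgeR called 116, 9 higher (0.0600%) and 107 lower (0.713%). Called genes below are those of the 5-library fit. Counts from the 3 libraries of UVB spleen and control are named as the 3-library fit. The 3-library fit takes all its spread from UVB 1 against UVB 2 and leaves 1 residual degree of freedom.

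**Figure D1:**
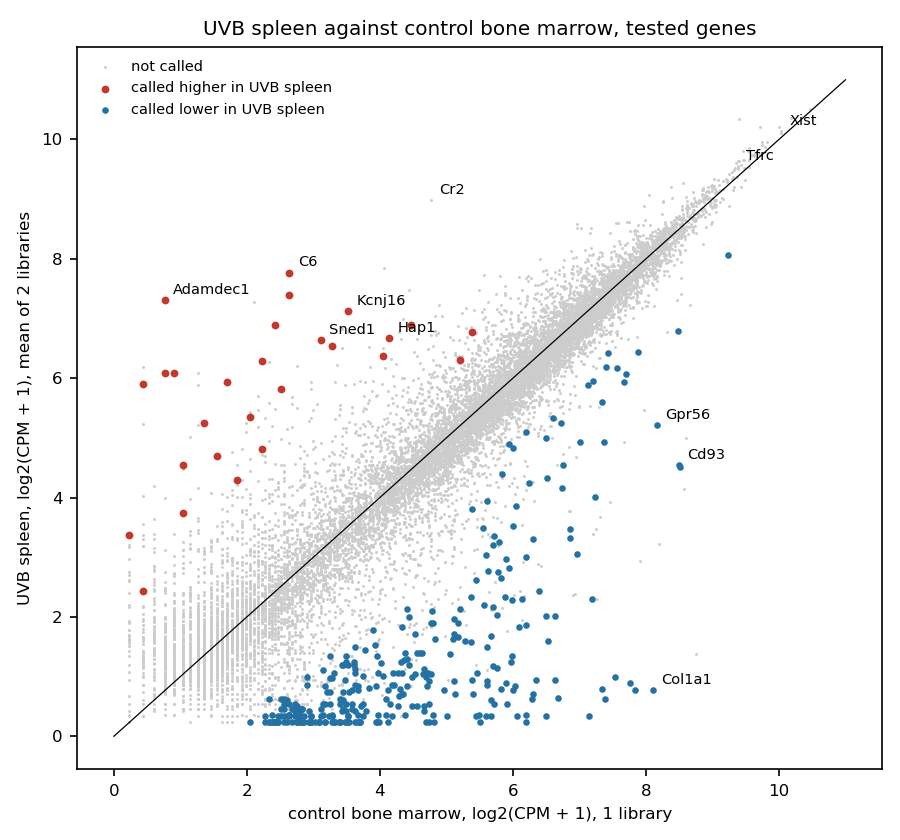
Each point is a tested gene, with its log2(CPM + 1) in the control library on the x axis and the mean over UVB 1 and UVB 2 on the y axis. The 27 genes called higher lie above the line of equality and the 322 called lower lie below it, many at the lower edge where the UVB libraries had almost no reads.

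The 27 higher genes had a median level of 68.4 CPM in UVB spleen, against 3.66 CPM in the control. The largest difference was in Adamdec1, a secreted metalloprotease, at 174 and 142 CPM in UVB 1 and 2, 54.1 and 95.5 CPM in tumor 1 and 2 and 0.698 CPM in the control. Its log2 fold change against the control was 6.54 (SE 0.38, adjusted p = 0.0189). All 4 spleen libraries were above the control. C6, which forms part of the membrane attack complex of complement, had 216 and 218 CPM in the UVB libraries, 55.5 and 103 CPM in the tumor libraries and 5.23 CPM in the control (log2 fold change 5.13, SE 0.38, adjusted p = 0.0199). Ptgis, which makes prostacyclin, had 72.97 and 60.9 CPM in the UVB libraries, 7.98 and 14.7 CPM in the tumor libraries and 0.872 CPM in the control. C6 and Ptgis were also higher in UVB than in tumor spleen, by 1.51 and 2.51 on the log2 scale (adjusted p = 0.0438 and 0.025 by limma).

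Several of these genes encode surface receptors of myeloid cells and lymphocytes. Cd300e, an activating receptor of monocytes, was at 130.1 and 106 CPM in UVB spleen, 34.4 and 69.1 CPM in tumor spleen and 4.36 CPM in the control. Clec4n, which encodes the fungal sugar receptor dectin-2, was at 127 and 109 CPM in UVB spleen and 21.1 CPM in the control. Cd244, a receptor of the SLAM family, was at 91.2 and 93.3 CPM in UVB spleen and 8.72 CPM in the control. In each of these genes both UVB libraries lay above the control. Rgs1, a brake on G protein signaling, was at 174 and 159 CPM in UVB spleen, 46.7 and 83.7 CPM in tumor spleen and 5.23 CPM in the control. Sirpb1a and 1 variable segment of the antibody kappa light chain also rose, against 10 and 5 control reads, and reads of such a segment can be shared with related segments.

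Another set was called higher in UVB spleen than in both other groups by limma. Sned1, an extracellular matrix glycoprotein, was at 105 and 92.4 CPM in UVB spleen, 7.10 and 14.8 CPM in tumor spleen and 7.67 CPM in the control, so the tumor libraries lay on either side of the control. Its log2 fold change was 3.52 against the control (SE 0.45, adjusted p = 0.0437) and 3.14 against tumor spleen (adjusted p = 0.0216 by limma). The potassium channel gene Kcnj16 was at 139 and 138 CPM in UVB spleen, 15.97 and 36.4 CPM in tumor spleen and 10.5 CPM in the control. Hap1, a partner of huntingtin, was at 109 and 93.4 CPM, 24.1 and 32.7 CPM and 16.6 CPM in UVB spleen, tumor spleen and the control. Cdk14, a cyclin-dependent kinase gene, was at 76.5 and 78.01 CPM in UVB spleen, 10.3 and 25.1 CPM in tumor spleen and 3.66 CPM in the control. Against the control, edgeR called Hap1 (adjusted p = 0.0406) but not Sned1, Kcnj16 or Cdk14 (adjusted p = 0.0667, 0.0761 and 0.0753). The transcription factor gene Gtf2ird1 was at 109 and 109 CPM in UVB spleen, 42.4 and 49.7 CPM in tumor spleen and 40.6 CPM in the control. Sez6l and the unnamed gene E030010N08Rik rose too, to 4.56 and 4.19 and to 10.1 and 8.56 CPM in the UVB libraries, against 1 and 0 control reads.

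The next 3 of the 27 genes were not called between UVB and tumor spleen, and Ptk2 and Zdhhc2 had nearly the same level in every spleen library. Ptk2, the focal adhesion kinase, was at 73.96 and 81.5 CPM in UVB spleen, 74.7 and 78.3 CPM in tumor spleen and 35.9 CPM in the control. Zdhhc2, a palmitoyltransferase, was at 28.95 and 25.2 CPM, 24.1 and 25.7 CPM and 3.66 CPM in the same order, and the tetraspanin gene Tspan15 at 84.9 and 78.9 CPM, 57.3 and 60.05 CPM and 15.5 CPM. The spleens differed in these genes by 0.02, 0.11 and 0.47 on the log2 scale (adjusted p = 0.898, 0.676 and 0.0626 by limma), and in Tspan15 both UVB libraries lay above both tumor libraries. Others of the 27 were the latrophilin gene Lphn3, the heparan sulfate sulfotransferase gene Hs3st2, the adhesion gene Nfasc, the RNA-binding protein gene Raver2, the drug transporter gene Abcb1a, the tetraspanin gene Tspan9 and Enpp2, which encodes autotaxin, the enzyme that makes lysophosphatidic acid. Nfasc varied most between the UVB libraries, at 81.7 and 44.6 CPM in UVB spleen, with 10.8 and 21.3 CPM in tumor spleen and 2.27 CPM in the control. Enpp2 was at 35.7 and 43.96 CPM in UVB spleen, 17.03 and 28.2 CPM in tumor spleen and 3.14 CPM in the control. Lphn3 had a log2 fold change of 5.48 against the control (adjusted p = 0.0189 by limma, and 0.0337 by edgeR).

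**Figure D2:**
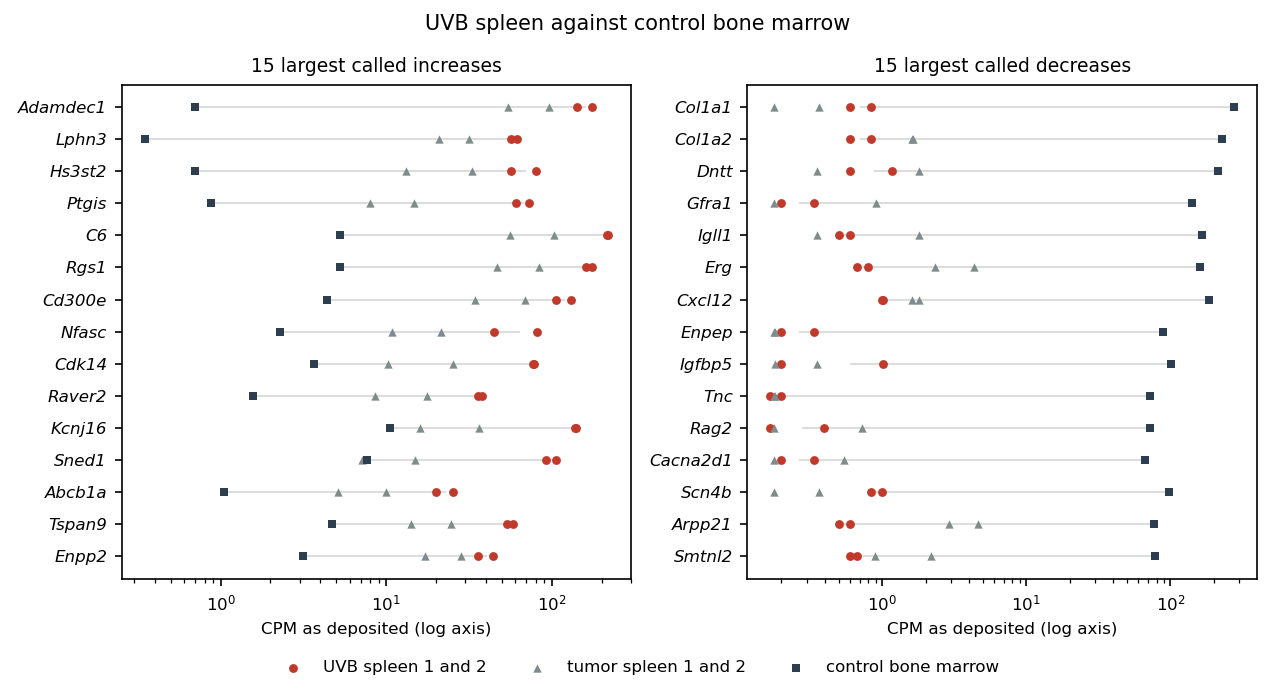
CPM on a log axis in each library for the 15 largest called increases (left) and decreases (right) with at least 10 CPM in the higher group. Red circles are UVB 1 and 2, grey triangles tumor 1 and 2 and dark squares the control. Both UVB libraries lie right of the control in the left panel and left of it in the right panel. The selection required this of every gene shown.

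The 322 lower genes had a median control level of 17.1 CPM, 196 of them averaged under 1 CPM in UVB spleen and 59 had 0 UVB reads. Cxcl12, the chemokine that keeps blood stem cells and B cell precursors in the marrow, was at 0.991 and 1.01 CPM in UVB spleen, 1.60 and 1.81 CPM in tumor spleen and 185 CPM in the control (log2 fold change -6.54, SE 0.27, adjusted p = 0.0189). Enpep, a peptidase carried by early B cells and stroma, had 1 UVB read against 511 control reads, so control reads at equal depth outnumbered UVB reads by a ratio of 980.4 (exact 95% interval 175 to 38797). Tnc, the matrix protein tenascin C, had 0 UVB reads against 414 control reads and was at least 265-fold lower, counting 3 reads over the UVB group. Igfbp5, which binds insulin-like growth factors, was at 0.198 and 1.01 CPM in UVB spleen and 101 CPM in the control. Cacna2d1, Scn4b, Arpp21 and Smtnl2 completed the largest decreases, with log2 fold changes between -5.73 and -5.59. Arpp21, at 0.595 and 0.503 CPM in UVB spleen, 4.61 and 2.89 CPM in tumor spleen and 76.7 CPM in the control, was also lower in UVB than in tumor spleen (adjusted p = 0.0349 by limma).

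Some abundant genes fell but kept at least 8 CPM in each UVB library. Cd93, a surface protein of progenitors and early B cells, was at 20.8 and 23.8 CPM in UVB spleen, 15.4 and 34.7 CPM in tumor spleen and 361 CPM in the control (log2 fold change -3.96, SE 0.49, adjusted p = 0.0417). Akap12, a scaffold for protein kinase A, was at 20.4 and 23.3 CPM in UVB spleen and 364 CPM in the control. In a second set the UVB libraries lay below the tumor libraries as well. The fatty acid elongase gene Elovl6 was at 8.53 and 11.9 CPM in UVB spleen, 40.8 and 64.2 CPM in tumor spleen and 115 CPM in the control. Gpam, which starts glycerolipid synthesis, was at 27.4 and 32.04 CPM in UVB spleen, 55.9 and 63.3 CPM in tumor spleen and 164 CPM in the control. The adhesion receptor gene Gpr56 was at 36.5 and 35.9 CPM in UVB spleen, 169.9 and 109 CPM in tumor spleen and 286 CPM in the control. Tiam1, an activator of Rac, was at 16.3 and 17.4 CPM in UVB spleen, 37.4 and 31.7 CPM in tumor spleen and 106 CPM in the control. Dnah8, a dynein heavy chain, was at 20.2 and 24.5 CPM in UVB spleen, 158 and 167 CPM in tumor spleen and 107 CPM in the control, so its tumor libraries lay above the control and its UVB libraries below it.

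The red cell label was checked against its genes. The erythroid identity list, which holds the bead antigen, the erythropoietin receptor and the main red cell transcription factors, summed to 8881 and 8335 CPM in UVB 1 and 2, 8602 and 7594 CPM in tumor 1 and 2 and 7770.4 CPM in the control. Of 22 tested members 0 were called, 22 lay above 0, and the log2 fold changes ran from 0.01 to 0.25 with a median of 0.15, against -0.06 over all genes. Icam4 had 0 reads in all 3 libraries of the comparison. The 3-library fit also called 0. Kel, a blood group antigen, was at 404 and 376 CPM in UVB spleen and 333 CPM in the control, and Gata1, the master red cell factor, at 164 and 169 CPM and 165 CPM. The UVB libraries and the control were thus close in these genes, whose median peak coverage was 0.77 reads per base. Of 16 heme synthesis genes and 17 genes of the red cell membrane skeleton 0 were called, with medians of 0.12 and 0.14.

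Iron genes had 0 of 17 called, with 1 member at least 2-fold higher in both UVB libraries (4.07% of all genes). This was Hfe, a regulator of iron uptake, at 146 and 150.2 CPM in UVB spleen, 39.03 and 67.1 CPM in tumor spleen and 55.6 CPM in the control (adjusted p = 0.166 against the control and 0.0364 against tumor spleen by limma). Fam132b, which encodes erythroferrone, the hormone by which red cell precursors release iron stores, was at 23.2 and 77.3 CPM in UVB spleen, 283 and 211 CPM in tumor spleen and 28.6 CPM in the control, so UVB 1 lay below and UVB 2 above the control. Of 17 erythropoietin feedback targets 0 were called. Among them Socs2, a cytokine signaling inhibitor, was at 14.7 and 11.2 CPM in UVB spleen, 20.05 and 23.2 CPM in tumor spleen and 46.7 CPM in the control (adjusted p = 0.062), and Osm, which encodes oncostatin M, at 7.54 and 8.39 CPM, 61.6 and 43.8 CPM and 12.2 CPM in the same order.

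Genes of early progenitors gave 1 call in 17, beside 2.15% of all genes called lower. This was Erg, a transcription factor gene that stem cells and B cell precursors use and that is also on the pro-B and pre-B list. It was at 0.793 and 0.671 CPM in UVB spleen, 2.31 and 4.34 CPM in tumor spleen and 161 CPM in the control. The 3-library fit called 8 lower, against 10.8% of all genes. Myb, a factor of dividing progenitors, was at 54.9 and 34.1 CPM in UVB spleen, 101 and 145 CPM in tumor spleen and 251 CPM in the control (adjusted p = 0.0588, and 0.0437 with TMM scaling), and Kit at 38.1 and 24.3 CPM, 75.04 and 97.1 CPM and 89.3 CPM (adjusted p = 0.137). In both genes the UVB libraries were the lowest of the 5, and both were lower in UVB than in tumor spleen (adjusted p = 0.0431 and 0.0365 by limma). Of the 16 tested genes of stress erythropoiesis, 1 was called lower, against 2.15% of all genes. This was Epas1, which encodes the hypoxia factor HIF-2α, at 3.17 and 2.68 CPM in UVB spleen, 6.21 and 6.69 CPM in tumor spleen and 33.7 CPM in the control. Smo, the Hedgehog transducer, was at 6.15 and 3.86 CPM in UVB spleen, 49.3 and 53.7 CPM in tumor spleen and 19.9 CPM in the control (adjusted p = 0.0908 against the control and 0.02 against tumor spleen by limma). Bmp4 had 0 UVB reads and 6 control reads and was too low to be tested.

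Of the 12 pro-B and pre-B cell markers 7 fell and all 12 lay below 0, with a median log2 fold change of -5.17, against -0.06 over all genes and 2.15% of genes called lower. Their summed level was 168 and 230.2 CPM in UVB spleen, 44.2 and 175 CPM in tumor spleen and 2054 CPM in the control. Igll1, whose promoter is given above, was at 0.595 and 0.503 CPM in UVB spleen and 166 CPM in the control, and Vpreb1 at 0.397 and 0.503 CPM and 59.5 CPM. Vpreb2 had 0 UVB reads and 67 control reads, but shares sequence with Vpreb1, so reads could be split between them. Rag1, a recombinase gene, had the largest size of difference in the list, at 1.39 and 1.85 CPM in UVB spleen, 0.355 and 12.1 CPM in tumor spleen and 432 CPM in the control, yet missed the threshold (adjusted p = 0.103). Il7r, the receptor for the B cell precursor cytokine IL-7, was at 5.35 and 2.85 CPM in UVB spleen and 152 CPM in the control (adjusted p = 0.115). The 3-library fit called all 12 lower, against 10.8% of all genes.

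Mature B cell markers gave 0 calls in 22, with 9 members at least 2-fold higher in both UVB libraries, 18 above 0 and a median of 0.57. Of all genes 4.07% were at least 2-fold higher in both. The 3-library fit called 13 higher and 0 lower, against 9.06% and 10.8% of all genes. Cr2, whose promoter is given above, was at 504 and 505 CPM in UVB spleen, 86.9 and 358 CPM in tumor spleen and 26.3 CPM in the control (log2 fold change 4.21, SE 0.84, adjusted p = 0.117). The spread in Cr2 was between the tumor libraries, while UVB 1 and 2 were nearly equal. Cd79a, which encodes a signaling chain of the B cell receptor, was at 90.2 and 78.5 CPM in UVB spleen and 78.5 CPM in the control. Marginal zone B cell genes, a list that also holds Cr2 and so overlaps the mature B cell list, had 0 of 10 called. In both UVB libraries 5 were at least 2-fold higher, and 10 lay above 0. Their median was 1.37, and the 3-library fit called 8 higher. Dtx1, a Notch target, was at 200.3 and 263 CPM in UVB spleen, 39.2 and 174 CPM in tumor spleen and 15.7 CPM in the control (adjusted p = 0.161). S1pr3, a sphingosine phosphate receptor, was at 94.4 and 126 CPM in UVB spleen, 10.1 and 71.8 CPM in tumor spleen and 10.5 CPM in the control, and the membrane repair gene Myof at 151 and 207 CPM, 23.1 and 109 CPM and 20.8 CPM. In Dtx1 and Myof every spleen library lay above the control, and in S1pr3 tumor 1 lay just below it.

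**Figure D3:**
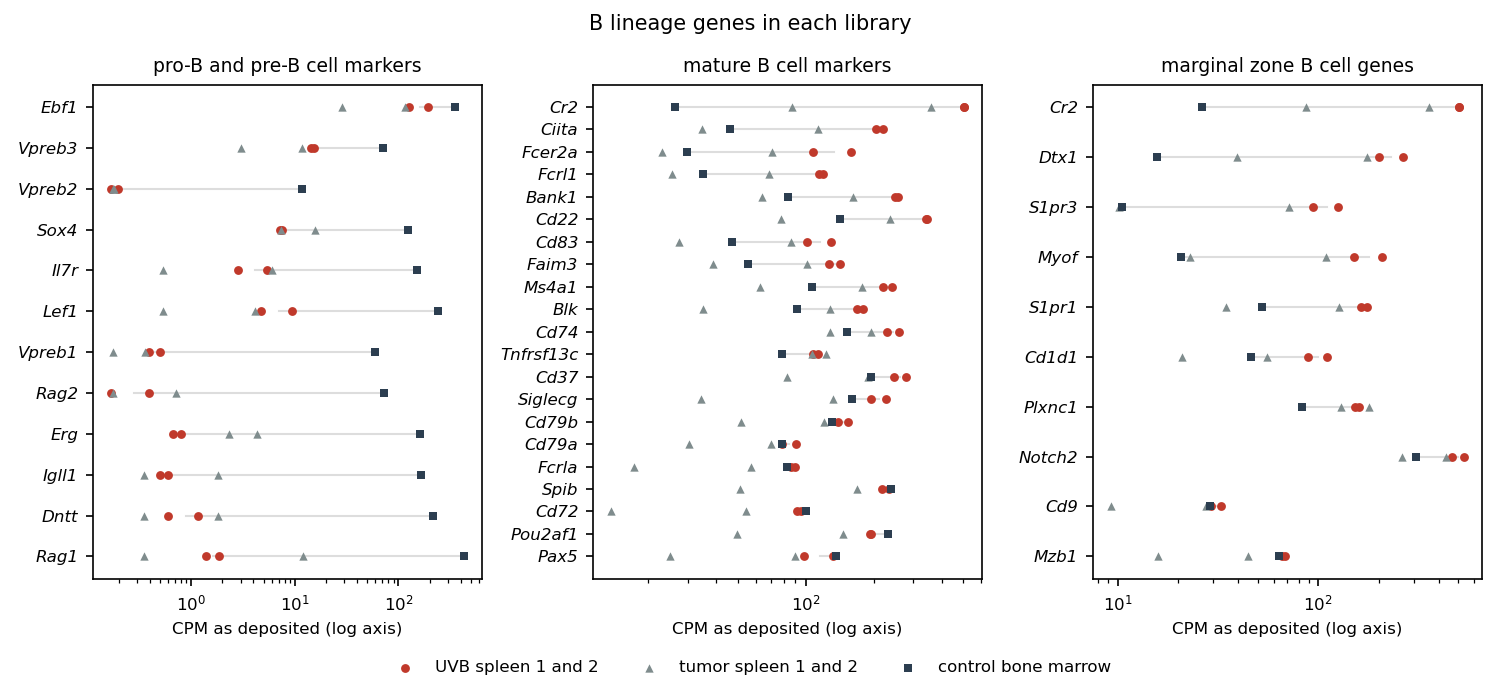
CPM on a log axis in each library for the tested pro-B and pre-B cell markers (left), mature B cell markers but 1 (middle) and marginal zone B cell genes (right). Red circles are UVB 1 and 2, grey triangles tumor 1 and 2 and dark squares the control. All 12 precursor markers have both UVB libraries below the control, and all 10 marginal zone genes have a UVB mean above it.

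Class II MHC genes, which present antigen on B cells, dendritic cells and macrophages, had 0 of 11 called, 11 above 0 and a median of 1.04. The 3-library fit called all 11 higher, against 9.06% of all genes. Ciita, their master regulator, was at 205 and 219.6 CPM in UVB spleen, 34.6 and 114 CPM in tumor spleen and 46.4 CPM in the control (adjusted p = 0.269). H2-Ab1 was at 224 and 202 CPM in UVB spleen, 83.6 and 155 CPM in tumor spleen and 103 CPM in the control. Class I MHC genes had a median of 0.17, with 0 of 17 called. Summed mature B cell markers moved with the class II genes, at 4379 and 4133 CPM in UVB spleen, 1154 and 3019.9 CPM in tumor spleen and 2477 CPM in the control, and their part in the class II values was not tested.

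Neutrophil granule genes fell in 8 of 24 tested members, against 2.15% of all genes called lower, all 24 lay below 0 and the median was -3.63. They summed to 291 and 279 CPM in UVB spleen, 162 and 459 CPM in tumor spleen and 2012 CPM in the control. Fcnb, a ficolin of granulocyte precursors, was at 0.595 and 0.336 CPM in UVB spleen and 51.4 CPM in the control (adjusted p = 0.0189), and Cd177, a neutrophil surface protein, at 3.97 and 3.86 CPM and 145 CPM (adjusted p = 0.0467). Ltf, which encodes lactoferrin, was at 8.72 and 8.05 CPM in UVB spleen, 1.60 and 11.6 CPM in tumor spleen and 292 CPM in the control but was not called (adjusted p = 0.112). Mpo, the myeloperoxidase of granulocyte precursors, was at 4.56 and 18.8 CPM in UVB spleen, 1.06 and 0.362 CPM in tumor spleen and 146 CPM in the control (adjusted p = 0.141). The 3-library fit called 23 lower (10.8% of all genes), and edgeR called 2 (0.713% of all genes). By limma 2 of 24 were called lower with log2(CPM + 0.25) and 2 of 23 with a mean of at least 5 CPM. Of all genes, 90 of 15006 and 60 of 11576 were called lower in those settings.

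Collagen chains fell in 12 of 19 tested genes (median -3.51), and marrow stromal and bone-forming genes in 12 of 22 (median -2.43), against 2.15% of all genes. The lists share Col1a1, Col1a2, Col3a1, Col5a1 and Col6a1. EdgeR called 4 collagen chains and 5 marrow stromal genes lower, against 0.713% of all genes. The 3-library fit called 15 and 20 lower (10.8% of all genes), with 2 collagen genes higher (9.06%). Ibsp, the bone sialoprotein gene, had 0 UVB reads and 155 control reads, at least 99.1-fold lower, and Spp1, which encodes osteopontin, was at 0.595 and 0.671 CPM in UVB spleen and 34.2 CPM in the control. The basement membrane chains Col4a1 and Col4a2 also fell, with Col4a1 at 3.97 and 3.02 CPM in UVB spleen, 28.6 and 31.8 CPM in tumor spleen and 51.3 CPM in the control. Col14a1 was at 279.8 and 237 CPM in UVB spleen, 28.6 and 45.6 CPM in tumor spleen and 253 CPM in the control, so UVB spleen and marrow overlapped and tumor spleen lay below both (adjusted p = 0.02 between the spleens by limma). Kitl, the stem cell factor gene, was at 52.3 and 45.97 CPM in UVB spleen, 12.95 and 23.3 CPM in tumor spleen and 50.8 CPM in the control.

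Endothelial markers fell in 5 of 19, against 2.15% of all genes, with 16 below 0 and a median of -2.54. EdgeR called 2 lower (0.713% of all genes). By limma 0 of 19 were called with log2(CPM + 0.25) and 0 of 14 with a mean of at least 5 CPM. Of all genes, 90 of 15006 and 60 of 11576 were called lower in those settings. The 3-library fit called 16 lower (10.8%) and 3 higher (9.06%). Egfl7, a protein secreted by endothelium, was at 3.37 and 2.18 CPM in UVB spleen, 28.2 and 28.8 CPM in tumor spleen and 26.3 CPM in the control, so tumor spleen and marrow were close and UVB spleen was low (adjusted p = 0.0321 against the control and 0.02 against tumor spleen by limma). Tek, the angiopoietin receptor, had 0 UVB reads and 50 control reads. Stab2, a scavenger receptor of sinusoidal endothelium, went the other way in value, at 227 and 192 CPM in UVB spleen, 64.4 and 104 CPM in tumor spleen and 144 CPM in the control, and was not called against the control. Of 6 tested genes of the GDNF family of ligands and their receptors 3 fell, against 2.15% of all genes. These were the receptor genes Gfra1, Ret and Ncam1. By edgeR Gfra1 alone was called (adjusted p = 0.0337, against 0.0982 for Ret and 0.108 for Ncam1). It was also the only call by limma with log2(CPM + 0.25). Gfra1 was at 0.198 and 0.336 CPM in UVB spleen and 141 CPM in the control, and Ncam1 had 0 UVB reads and 67 control reads. Megakaryocyte markers had 1 of 16 lower, Mmrn1, at 1.98 and 0.168 CPM in UVB spleen and 58.6 CPM in the control, and mast cell, basophil and eosinophil markers 1 of 8, Epx, the eosinophil peroxidase. A single call in lists of this size stands beside 2.15% of all genes called lower, and nothing is read from it.

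Splenic and erythroblastic island macrophage markers had 0 of 26 called and 23 above 0 (median 0.31), and summed to 6793 and 5915 CPM in UVB spleen, 2514 and 3687 CPM in tumor spleen and 5109 CPM in the control. Siglec1, a sialic acid receptor of marrow and marginal zone macrophages, was at 162 and 177 CPM in UVB spleen, 19.3 and 33.8 CPM in tumor spleen and 368 CPM in the control (adjusted p = 0.25 against the control and 0.0209 against tumor spleen by limma). Spic, the factor of red pulp macrophages, was at 236 and 198 CPM in UVB spleen, 76.99 and 127 CPM in tumor spleen and 118 CPM in the control. Of 16 monocyte markers 12 lay above 0, with a median of 0.67 and 4 at least 2-fold higher in both UVB libraries (4.07% of all genes). The 3-library fit called 7 of these markers higher and 2 lower, against 9.06% and 10.8% of all genes. Their summed level was 1623 and 1602 CPM in UVB spleen, 562 and 1033 CPM in tumor spleen and 885 CPM in the control. With all 5 libraries 1 member was called, lower, against 2.15% of all genes. This was F13a1, the coagulation factor XIII gene, at 7.93 and 8.56 CPM in UVB spleen, 2.66 and 2.89 CPM in tumor spleen and 50.8 CPM in the control. Dendritic cell markers had 0 of 15 called and 9 above 0 (median 0.22), and their leading value was in the integrin gene Itgax, at 102 and 78.9 CPM in UVB spleen, 22.7 and 61.9 CPM in tumor spleen and 15.5 CPM in the control (adjusted p = 0.176). T cell markers had 0 of 15 called, plasma cell markers 0 of 14, and NK cell markers 1 of 5 lower, Klrb1c, against 2.15% of all genes. Their summed levels in the UVB libraries were 216 and 136 CPM for T cells and 44.8 and 37.9 CPM for NK cells, against 182 CPM and 41.2 CPM in the control.

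**Figure D4:**
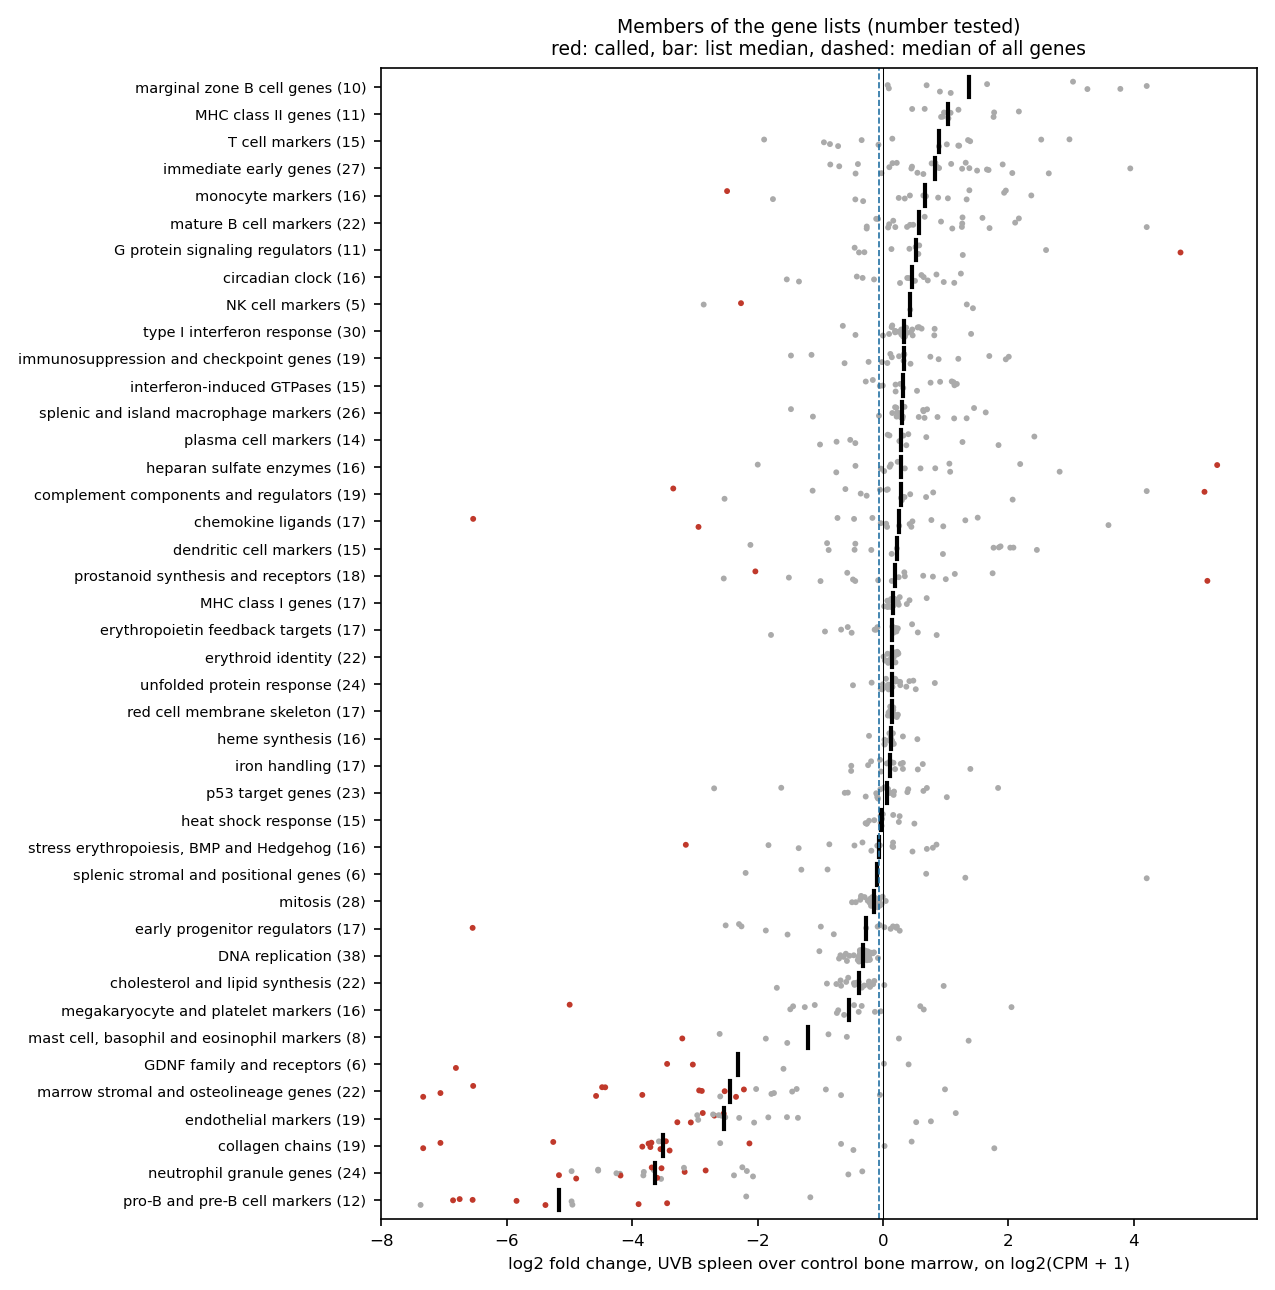
Each point is a tested gene of a list, placed by its log2 fold change of UVB spleen over control bone marrow on the log2(CPM + 1) scale, with called genes in red and the list median as a bar. Medians run from -5.17 for pro-B and pre-B cell markers to 1.37 for marginal zone B cell genes, and the dashed line is the median of all genes at -0.06.

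The pathway lists in this paragraph had 1 or 2 calls each, against 2.33% of all genes called. Nothing is read from 1 or 2 calls in lists of this size. Collagen chains (12 of 19) and the GDNF family (3 of 6), given above, had more. Complement genes had C6 higher and the C1 inhibitor gene Serping1 lower among 19, with Serping1 at 0.595 and 0.839 CPM in UVB spleen and 16.4 CPM in the control. Prostanoid genes had Ptgis higher and Ptgir, the prostacyclin receptor, lower among 18, with Ptgir at 0.991 and 1.34 CPM in UVB spleen and 7.85 CPM in the control. Among 16 heparan sulfate enzymes Hs3st2 rose, at 80.5 and 56.4 CPM in UVB spleen, 13.1 and 32.7 CPM in tumor spleen and 0.698 CPM in the control (adjusted p = 0.0329, and 0.069 by edgeR). Among 11 regulators of G protein signaling Rgs1 rose. Chemokine genes had Cxcl12 and Cxcl14 lower among 17. The eosinophil chemokine gene Ccl24 was at 21.4 and 10.9 CPM in UVB spleen, 20.8 and 35.6 CPM in tumor spleen and 0.349 CPM in the control, which rests on 1 control read (adjusted p = 0.0654, and 0.0467 with TMM scaling).

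Immediate early genes, which cells switch on within minutes of a stimulus, handling included, had 0 of 27 called, with 11 at least 2-fold higher in both UVB libraries and a median of 0.84. Of all genes 4.07% were that much higher. The 3-library fit called 16 higher (9.06% of all genes) and 1 lower (10.8%). Fos was at 182 and 87.9 CPM in UVB spleen, 16.7 and 40.2 CPM in tumor spleen and 19.4 CPM in the control (adjusted p = 0.181), and Fosb at 135 and 42.8 CPM, 2.13 and 9.40 CPM and 4.01 CPM (adjusted p = 0.181). In both, UVB 1 was well above UVB 2, and both lay above the other libraries. Jun was at 213 and 162 CPM in UVB spleen, 37.8 and 58.2 CPM in tumor spleen and 58.1 CPM in the control (adjusted p = 0.111).

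DNA replication genes had 0 of 38 called, yet all 38 lay below 0, as did 8527 of all 15006 genes, with a median of -0.32. The 3-library fit called 13 lower, against 10.8% of all genes. Gins2, a subunit of the replicative helicase, was at 22.8 and 21.3 CPM in UVB spleen, 59.1 and 47.02 CPM in tumor spleen and 45.5 CPM in the control (adjusted p = 0.131). The replicative polymerase gene Pole was at 142 and 170.1 CPM in UVB spleen, 345 and 280.3 CPM in tumor spleen and 253 CPM in the control. In both genes the UVB libraries were the lowest of the 5. Genes of cholesterol and lipid synthesis had 0 of 22 called and 20 below 0 (median -0.37). This list did not hold Elovl6 and Gpam, which were called lower. For the list the 3-library fit called 6 lower and 1 higher, against 10.8% and 9.06% of all genes. Mitosis genes had 0 of 28 called, with a median of -0.15.

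**Figure D5:**
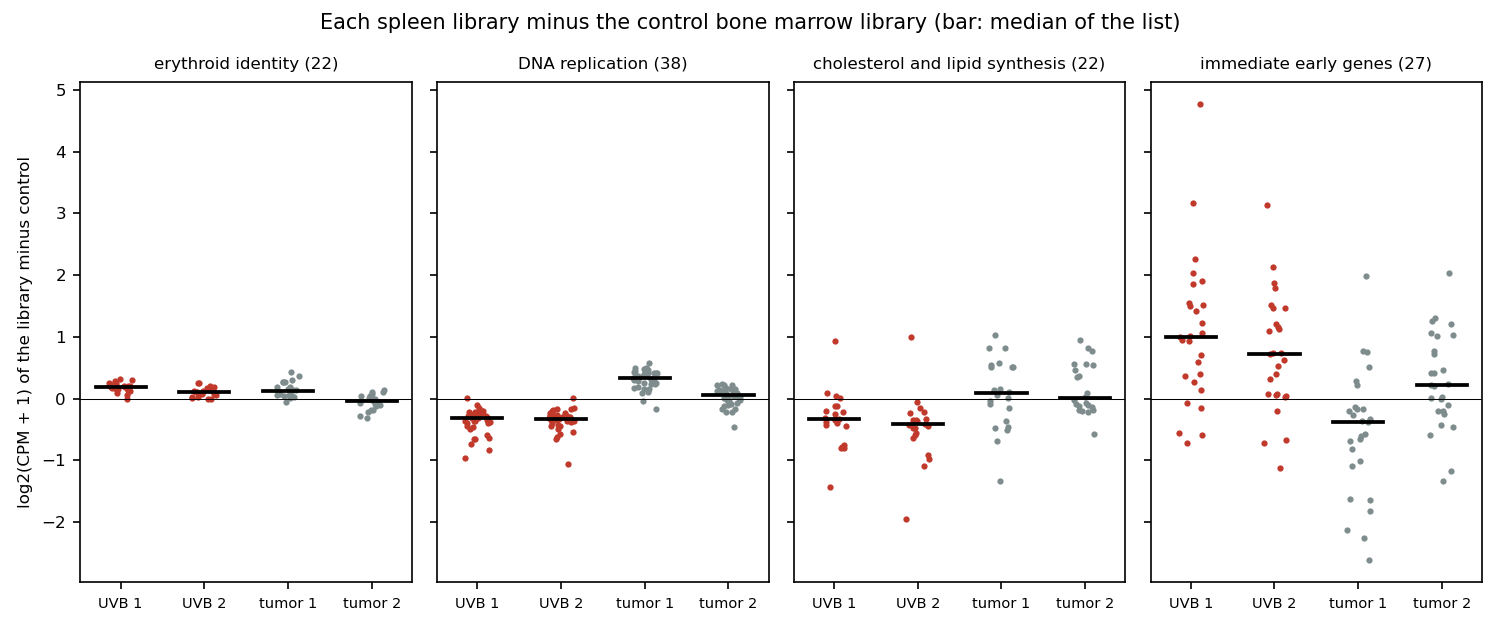
Each point is a gene's log2(CPM + 1) in a spleen library minus that in the control library, for 4 lists, with UVB libraries in red, tumor libraries in grey and the list median as a bar. Erythroid identity genes lie near 0 in every library, and the DNA replication medians are -0.31 and -0.33 in UVB 1 and 2.

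Genes of DNA damage, heat and interferon responses gave 0 calls against the control. Of 23 p53 targets 13 lay above 0 and 10 below, with a median of 0.07. In both UVB libraries 1 was at least 2-fold higher and 2 at least 2-fold lower (4.07% and 6.20% of all genes). The arrest gene Cdkn1a was at 6.15 and 3.52 CPM in UVB spleen, 45.8 and 16.3 CPM in tumor spleen and 35.8 CPM in the control (adjusted p = 0.183). Pmaip1 and Zmat3 went the other way, with log2 fold changes of 1.84 and 1.02 (adjusted p = 0.336 and 0.166 by limma). The unfolded protein response had a median of 0.15 over 24 genes. Heat shock genes had a median of -0.03 over 15 genes, which was 0.01 with TMM scaling. Type I interferon genes had a median of 0.34 over 30 genes, with 28 above 0, and the 3-library fit called 10 higher and 1 lower, against 9.06% and 10.8% of all genes. Of 19 immunosuppression and checkpoint genes 0 were called, 14 lay above 0 and 5 below, and 3 were at least 2-fold higher and 2 at least 2-fold lower in both UVB libraries (4.07% and 6.20% of all genes). Cd274, which encodes the checkpoint ligand PD-L1, was at 109.9 and 110.4 CPM in UVB spleen, 21.3 and 75.8 CPM in tumor spleen and 27.6 CPM in the control (adjusted p = 0.332). Havcr2, which encodes the checkpoint receptor TIM-3, was at 34.1 and 29.4 CPM in UVB spleen, 7.45 and 11.8 CPM in tumor spleen and 9.07 CPM in the control (adjusted p = 0.121). Of 16 clock genes 0 were called and 11 lay above 0. In both UVB libraries 2 were at least 2-fold higher and 2 at least 2-fold lower (4.07% and 6.20% of all genes). The clock gene Arntl was at 41.8 and 41.6 CPM in UVB spleen, 18.6 and 27.1 CPM in tumor spleen and 107 CPM in the control (adjusted p = 0.115), and the clock repressor gene Bhlhe40 at 83.3 and 81.4 CPM, 17.03 and 30.2 CPM and 34.2 CPM. The hour of sampling is not given in the sources used here.

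UVB 1 and 2 differed most in 5 genes of at least 10 CPM. The T cell gene Cd8a was at 20.03 and 1.17 CPM in UVB 1 and 2. The acute phase gene Saa3 was at 2.18 and 34.2 CPM, the lubricin gene Prg4 at 3.97 and 31.04 CPM, the lipoxygenase gene Alox15 at 2.18 and 22.5 CPM and the predicted gene Gm9522 at 0.793 and 22.6 CPM, all 4 higher in UVB 2. None was called against the control, where Cd8a and Saa3 had 0 reads. Fn1, the fibronectin gene, also stood apart in UVB 2, at 47.8 and 228 CPM in UVB spleen and 26.2 CPM in the control.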

How the data were processed

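RNA from CD71-selected mouse cells was measured in 5 libraries. STAR, HTSeq and mm10 are named in the submitters' processing notes, while strand, duplicate handling, versions and annotation were not stated there, so antisense neighbours may share reads. The deposited unit was CPM, for which the authors had added 1 read per gene before scaling, as the values show. Every value (100%) was a whole number of reads within a tolerance of 1e-06. The authors' deposited log2 ratio columns were not used.

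Genes averaging 1 CPM or more entered a two-sided limma-trend test (limma 3.58.1, R 4.3.3) of log2(CPM + 1) over the 5 libraries together, which leaves 2 residual degrees of freedom, assuming that the lone control varies like the spleens, with Benjamini-Hochberg adjustment and a threshold of 0.05. All fold changes are on that log2(CPM + 1) scale, which understates low genes. The procedure was run on simulated data in which all libraries varied alike, so that run cannot test the assumption about the control. EdgeR 4.0.16 on recovered reads, other scalings, filters, pseudocounts and subsets of libraries were alternatives. Where the UVB group had 0 reads, folds are bounds against 3 reads over the group, and with 1 to 3 reads, read ratios have exact 95% intervals, which cover counting error only.

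Named genes were first the 15 largest called changes each way with at least 10 CPM in the higher group. For these, both UVB libraries had to lie on the same side of the control. To them were added the 10 largest among called genes of at least 100 CPM in the higher and 10 CPM in the lower group. Also named under this rule were up to 4 per list, the 5 that differed most between UVB 1 and 2, and a panel. The other called increases, and list members outside this rule, were named after their values were seen. A few genes are not reported here. Of 854 list entries 852 matched, and GENCODE M21 supplied lengths and 27 symbols stored as dates. Members, lists and motifs were chosen with earlier results of these data known. UVB and tumor libraries were compared without a replicate block: same-numbered libraries had a correlation of deviations of -0.11.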

Additional observations from a re-analysis of the deposited data

Results flagged for a closer look

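For 38 genes named above, the difference of UVB spleen from control marrow was not the same as that of tumor spleen from the same control, by limma's test of UVB against tumor spleen (adjusted p under 0.05). Both differences share the control library, so their difference is the change between the spleens. Of all 15006 tested genes 2557 (17.0%) were called in that test. Some of the 38 were named after their values were seen, so nothing is read from their number. Higher in UVB than in tumor spleen, on the log2 scale, were values of 3.76 in Fosb, 3.14 in Sned1, 2.80 in Col14a1, 2.68 in Siglec1, 2.51 in Ptgis, 2.47 in Kcnj16, 2.19 in Cdk14 and 1.96 in Jun. The next differences in this direction were 1.89 in E030010N08Rik, 1.81 in Bhlhe40, 1.81 in Hap1, 1.65 in Havcr2, 1.58 in Sez6l, 1.53 in Tspan9, 1.51 in Hfe and 1.51 in C6. Smaller increases were 1.44 in Kitl, 1.40 in Rgs1, 1.34 in Stab2, 1.29 in F13a1, 1.23 in Gtf2ird1 and 1.17 in Lphn3. Lower in UVB than in tumor spleen were values of -3.15 in Smo, -2.98 in Egfl7, -2.81 in Dnah8, -2.80 in Col4a1, -2.76 in Col4a2, -2.56 in Osm, -2.23 in Elovl6 and -1.88 in Gpr56. Smaller decreases were -1.59 in Arpp21, -1.46 in Myb, -1.46 in Kit, -1.22 in Gins2, -1.17 in Tek, -0.998 in Pole, -0.99 in Tiam1 and -0.98 in Gpam. The adjusted p of these genes ran from 0.02 to 0.0499 by limma, and 0 genes were called between the spleens without UVB 1 or without UVB 2, or with a replicate block.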

How the results depend on the processing

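With all 5 libraries 349 genes were called between UVB spleen and control. The count was 101 with log2(CPM + 0.25), 541 with no filter, 67 with a mean of at least 5 CPM, 116 with edgeR, 389 with TMM and 368 with median-ratio scaling, and 2984 in the 3-library fit, which drops both tumor libraries. Leaving out 1 library gave 0 to 3056 calls, with 0 without UVB 1 or UVB 2 (1065 and 1122 at unadjusted p under 0.05) and 3043 and 3056 without tumor 1 or tumor 2. The 3-library fit and the fits without 1 UVB or 1 tumor library each leave 1 residual degree of freedom. Without a UVB library each contrast also has 1 UVB library, which is assumed to vary like the tumor libraries. Between UVB and tumor spleen 2557 genes were called, 705 higher and 1852 lower. With TMM scaling the split was 1016 and 1543. Leaving out 1 library gave 0 to 7888 calls there, with 5694 without tumor 1 and 7888 without tumor 2. With a replicate block 0 were called (5502 at unadjusted p under 0.05), and with the numbers crossed, a pairing added after seeing the data, 3049. The control has no pairing number for a block against UVB spleen. Of genes at least 2-fold apart in both UVB libraries there were 1540, or 954 with a mean of at least 5 CPM, 1826 with log2(CPM + 0.25), and 1894 to 2013 with 1 UVB library alone. Of 62 called genes among the 196 named and tested, 62 kept their call with TMM, median-ratio scaling, no filter, in the 3-library fit and without either tumor library, 35 with edgeR, 33 with log2(CPM + 0.25), 28 of 49 with at least 5 CPM, and 0 without UVB 1 or UVB 2. A further 89 were called in the 3-library fit. Read depth limits genes of a few CPM. The causes of these shifts were not tested.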
